A study of Mus musculus with 2 samples.

Results

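The genes described here are 10 mouse genes of antibody structure and secretion: the heavy-chain constant genes Ighm, Ighd, Ighg1, Ighg2b, Ighg2c, Ighg3 and Igha, the joining chain gene Jchain, the endoplasmic reticulum cofactor gene Mzb1 and the transcription factor gene Xbp1. They were taken by name from the 55450 genes of the deposited matrices and were followed through B cells, plasmacytoid dendritic cells (pDCs) and the T, NK and myeloid cells of the same libraries. The cells were CD45+ immune cells sorted from subcutaneous B16F10 tumours, a transplantable mouse melanoma, 10 days after injection. The KO group was Lyz2-Cre-Kcnj2f/f mice, in which Cre is driven from the Lyz2 locus, active in macrophages, monocytes and neutrophils. The WT group was Kcnj2f/f mice, which carry the same floxed Kcnj2 allele without Cre. Kcnj2 encodes the potassium channel Kir2.1, whose part in the tumour microenvironment the study set out to examine. Each genotype had 1 library made from the pooled tumours of 3 mice, and the ages of the mice are not given in the sources used here. No test between genotypes was therefore possible. Every interval below is a 95% interval for counting error only, and each comparison is one between these libraries.

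A B cell first makes its heavy chain with the constant region of IgM, encoded by Ighm, and reads through into Ighd to make IgD by alternative splicing. In class switching the DNA between is removed and a downstream constant gene, one of the Ighg genes, Ighe or Igha, comes to lie next to the same variable segment. A cell that goes on to secrete antibody switches on Prdm1 and Xbp1, expands its endoplasmic reticulum and fills its RNA pool with immunoglobulin transcripts. Jchain encodes the joining chain that links IgM pentamers and IgA dimers, and Mzb1 encodes a chaperone of the endoplasmic reticulum found in B cells and pDCs. pDCs are dendritic cells that make type I interferon and use several genes otherwise known from B cells.

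On GRCm38 the heavy-chain genes lie on the minus strand of chromosome 12, so transcription runs from the higher coordinate to the lower. Ighm spans 113418558 to 113422730 and Ighd 113406604 to 113416324. Downstream follow Ighg3 (113356224 to 113361232), Ighg1 (113325240 to 113330523), Ighg2b (113302965 to 113307933), Ighg2c (113285325 to 113288932), Ighe (113269260 to 113273248) and Igha (113254830 to 113260236). Jchain lies on the minus strand of chromosome 5 (88519809 to 88527891) and Xbp1 on the plus strand of chromosome 11 (5520659 to 5525893).

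The IgG genes are close relatives, and the isotype called in a cell depends on telling them apart. Their hinge exons, all exon 2, are printed to show how the subclasses differ. Capitals mark the in-frame cysteine codons, which encode the residues that can bridge the 2 heavy chains. The sequences are those of the GENCODE M21 transcripts on the minus strand of GRCm38, at chr12:113288263-113288325 for Ighg2c, chr12:113307261-113307326 for Ighg2b, chr12:113329844-113329882 for Ighg1 and chr12:113360529-113360576 for Ighg3.
Ighg2c: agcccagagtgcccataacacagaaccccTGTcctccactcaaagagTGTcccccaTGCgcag
Ighg2b: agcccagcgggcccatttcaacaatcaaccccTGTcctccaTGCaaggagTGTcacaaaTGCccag
Ighg1: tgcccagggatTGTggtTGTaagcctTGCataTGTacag
Ighg3: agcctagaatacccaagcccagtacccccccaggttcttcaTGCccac

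The hinges held 3 cysteine codons in Ighg2c, 4 in Ighg2b, 4 in Ighg1 and 1 in Ighg3, over 63, 66, 39 and 48 bases. Over the aligned coding bases of the secreted form, identity between pairs of IgG genes was 74.1% to 85.6%, highest for Ighg2b with Ighg2c. No stretch of 100 bases was shared between the transcripts of any 2 heavy-chain genes, so a read of that length has a single best source, although shorter identical stretches exist.

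The secreted tails show what sets IgM and IgA apart from IgG for the joining chain. The last coding bases after the splice site used by the membrane form are printed, with the penultimate cysteine codon in capitals. This cysteine forms the bond to the joining chain. Ighm is at chr12:113420870-113420928 and Igha at chr12:113258771-113258829, both on the minus strand of GRCm38. The 4 IgG genes had 5 coding bases at the same place and no such cysteine codon.
Ighm: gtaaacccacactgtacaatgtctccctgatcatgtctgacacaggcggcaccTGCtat
Igha: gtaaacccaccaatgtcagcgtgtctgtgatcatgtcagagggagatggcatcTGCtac

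After filtering, 5687 KO cells (median 8021 UMIs, or unique molecular identifiers, the counted RNA molecules) and 8936 WT cells (median 4398.5 UMIs) were kept. In the libraries 63 cell barcodes occurred in both, under 1% of either. Kcnj2 had 84 UMIs in 900 KO macrophage-like cells (9.81 CPM, a gene's UMIs scaled to a common total, interval 7.82 to 12.1) and 107 in 584 WT macrophage-like cells (23.8 CPM, 19.5 to 28.8), and 0 UMIs in the B cell-like cells of either library. The counted reads need not cover the deleted part of the gene. Clusters were formed without any immunoglobulin gene or member. The B cell-like class held 398 KO cells (7.0% of kept cells, 6.35 to 7.69) and 1829 WT cells (20.5%, 19.6 to 21.3). It joined cluster 3, led by Vpreb3, Fcer2a and Cr2, with 334 KO and 946 WT cells, and cluster 5, led by Fcrl5, Sox5 and Il5ra, with 64 KO and 883 WT cells. Cluster 3 thus held most KO B cell-like cells, and the WT cells were split almost evenly. An unnamed cluster with B and CD8 T cell genes and high doublet scores held 8 KO and 200 WT cells.

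Most RNA of Igha, Ighg2b, Ighg2c and Jchain came from 25 cells. They are called antibody-secreting here when at least 1% of their UMIs came from heavy-chain constant genes and at least 5 UMIs from Jchain, a definition chosen after the data had been seen. There were 9 in the KO library (0.158% of kept cells, 0.0724 to 0.300) and 16 in the WT library (0.179%, 0.102 to 0.291). Set against the cells of the clusters with B cell markers, they were 9 of 409 KO cells (2.2%, 1.01 to 4.14) and 16 of 2032 WT cells (0.787%, 0.451 to 1.28), and these intervals overlapped. Heavy-chain genes gave 2.59% to 15.2% of the UMIs of these 25 cells. In the 4 further cells with 3 or more Jchain UMIs, which missed the definition, they gave 0.0775% to 0.206%.

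The definition used the UMIs of the heavy-chain genes and Jchain, so the shares of these genes given here follow in part from it. Xbp1 was not used. Together the antibody-secreting cells held 97.3% of the KO and 95.1% of the WT Igha UMIs in kept cells. For Jchain the shares were 98.6% in KO and 97.9% in WT, and for Ighg2c 95.9% in KO and 96.2% in WT. For Ighg2b they held 51.7% of the 149 KO UMIs and 96.1% of the 8040 WT UMIs. Ighm and Xbp1 were spread differently: the same cells held 0.0102% of KO and 0.911% of WT Ighm UMIs, and 3.13% of KO and 8.96% of WT Xbp1 UMIs.

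IgA led among them. The leading heavy-chain gene was Igha in 8 of 9 KO cells and 11 of 16 WT cells, together 19 of 25 cells (76.0%, 54.9 to 90.6). The other KO cell used Ighg2c. Of the other 5 WT cells, 2 used Ighg2c, 2 used Ighg2b and 1 used Ighm. Ighg1, Ighg3, Ighd and Ighe led in none of the 25 cells. The leading gene gave over 97% of the heavy-chain UMIs in 23 of 25 cells, and 87.2% in the lowest, a WT cell with 78 heavy-chain UMIs. The KO cell led by Ighg2c, with 2612 UMIs, also had 45 of Ighg2b, the gene closest to it in sequence. Of the KO cells led by Igha, 3 had 24 to 67 UMIs of Ighg2b or Ighg2c.

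**Figure D1:**
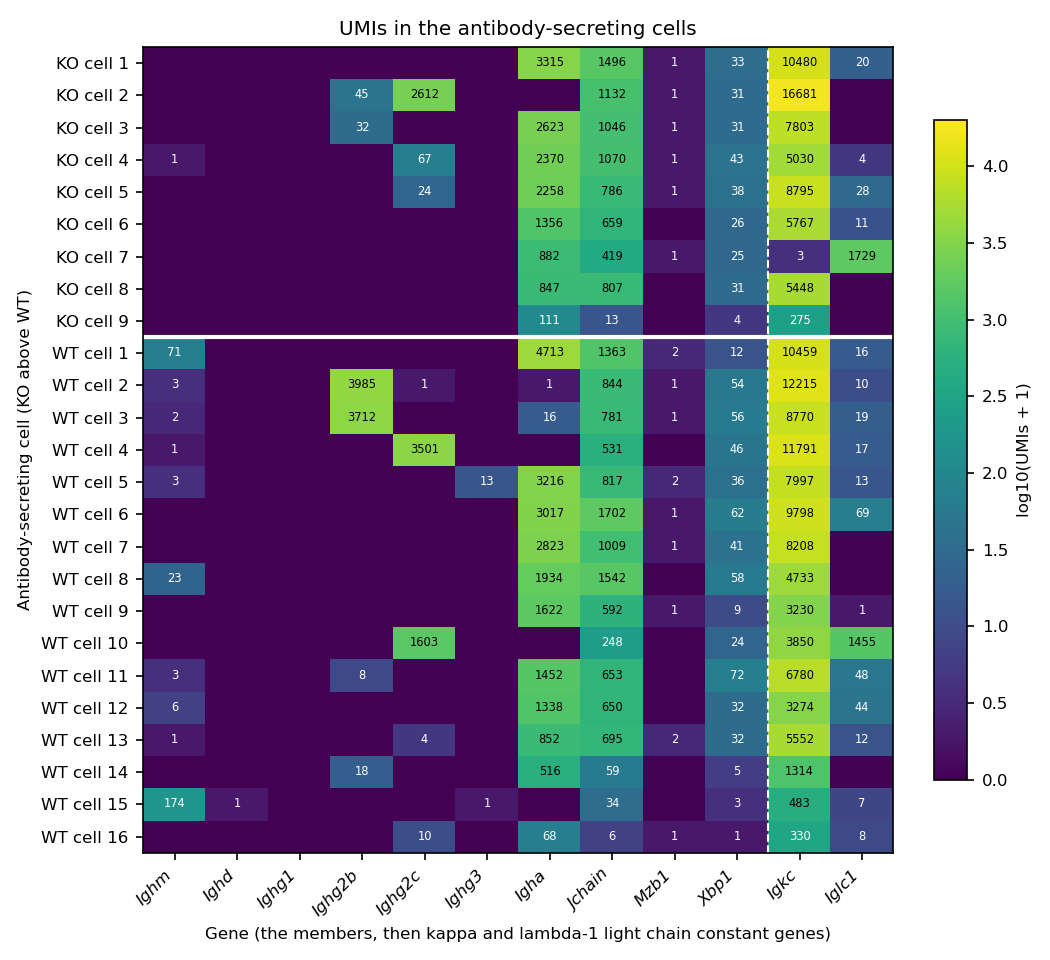
UMIs of the 10 members and of the light chain constant genes Igkc and Iglc1 (columns) in each of the 25 antibody-secreting cells (rows, 9 KO above 16 WT), with the count written in each square (blank for 0) and colour on a log10(UMIs + 1) scale. Each row has 1 bright heavy-chain column, mostly Igha, and 5 rows are led by Ighg2b or Ighg2c. Jchain is filled in every row by definition, since at least 5 Jchain UMIs were required.

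The cell with most heavy-chain UMIs in the KO library had 3315 UMIs of Igha, none of any other heavy-chain gene and 1496 of Jchain. Its WT counterpart had 4713 of Igha, 71 of Ighm and 1363 of Jchain. Over the cells, all immunoglobulin genes together made up 14.6% to 67.6% of UMIs in KO cells (median 39.9%) and 10.1% to 62.4% in WT cells (median 41.6%). The ranges of the libraries overlapped over almost their whole length. Total depth ran from 2641 to 51513 UMIs in KO cells and from 1633 to 46180 in WT cells.

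Jchain RNA was not limited to cells whose isotype binds the joining chain. At least 5 Jchain UMIs were part of the definition, so only amounts above that can be read here. The KO cell led by Ighg2c, whose tail lacks the cysteine codon, had 1132 Jchain UMIs, or 42.6 per 100 heavy-chain UMIs. The 4 WT cells led by Ighg2b or Ighg2c had 844, 781, 531 and 248 Jchain UMIs, or 21.2, 20.9, 15.2 and 15.5 per 100. Over all antibody-secreting cells the ratio ran from 11.7 to 95.3 in KO cells (median 43.9) and from 7.69 to 81.1 in WT cells (median 26.9). The WT values for IgG thus lay in the lower part of the WT range but inside it.

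Xbp1, the transcription factor that drives expansion of the secretory apparatus, was found in all 25 cells. Its summed level was 1171 CPM in KO antibody-secreting cells (1033 to 1321) and 1449 CPM in WT ones (1330 to 1576). In the other B cell-like cells it was 23.5 CPM in KO (15.8 to 33.5) and 54.1 CPM in WT (48.1 to 60.7). Single cells ran from 835 to 1515 CPM in KO (median 1371) and from 342 to 2209 CPM in WT (median 1590), so the libraries overlapped.

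Mzb1, on the minus strand of chromosome 18 (35647267 to 35649367), was counted in few molecules throughout. It had 0 or 1 UMI in each KO and 0 to 2 in each WT antibody-secreting cell, 6 and 12 UMIs in all. In the annotation 57.2% of its exon bases are shared with a gene on the same strand, SPATA24, which had 0 UMIs in both libraries. Reads in shared bases may not be counted for either gene, so Mzb1 levels are uncertain and may be too low. The Mzb1 UMIs found were mostly in B cells and pDCs, with 26.8 CPM in KO and 32.0 CPM in WT antibody-secreting cells, 7.82 and 5.71 CPM in the other KO and WT B cell-like cells, and 5.32 and 5.65 CPM in KO and WT pDC-like cells. Across 9 T, NK and myeloid classes there were 0 KO and 4 WT UMIs.

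Genes outside the list carried the same division. Tnfrsf17, which encodes the plasma cell survival receptor BCMA, had 313 CPM in KO and 53.4 CPM in WT antibody-secreting cells and 0 UMIs in all other B cell-like cells of both libraries. In the KO library, 2 of the 9 cells carried most of the Tnfrsf17 UMIs, 32 and 23 of 70. Ccr10, the receptor by which IgA-secreting cells are drawn to epithelia, had 107 CPM in KO and 115 CPM in WT antibody-secreting cells, again with 0 UMIs in the others. Not every antibody-secreting cell had them: Tnfrsf17 was found in 8 of 9 KO and 7 of 16 WT cells, and Ccr10 in 7 KO and 9 WT cells. Ms4a1, which encodes the B cell surface protein CD20, had 0 UMIs in the 9 KO cells and 14 in the 16 WT cells, 13 of them in the single cell led by Ighm. That cell met the definition but had 2 plasma cell markers, 18 Cd79a UMIs and 0 UMIs of Tnfrsf17, Sdc1 and Ccr10. In the other B cell-like cells Ms4a1 stood at 673 CPM in KO, against 860 CPM in WT.

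The cells differed in their variable segments. A heavy-chain variable segment with at least 3 UMIs was found in 23 cells, which used 14 different ones, and a kappa segment in 24 cells, which used 19. Ighv1-64 was the leading segment in 1 KO and 4 WT cells, Ighv1-9 in 3 KO and 0 WT cells, and Ighv3-6 in 1 KO and 2 WT cells. Of the 22 cells with both segments there were 21 different pairs. The single repeated pair, Ighv1-64 with Igkv10-96, joined a KO cell of Igha and a WT cell of Ighg2b, which came from different mice. Kappa light chains led in 24 cells. In 1 KO cell the lambda gene Iglc1 had 1729 UMIs against 3 of Igkc, and 1 WT cell held both Igkc, with 3850 UMIs, and Iglc1, with 1455.

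The clusters placed 14 of the 25 cells in the B cell-like class (6 KO, 8 WT), 5 in the unnamed cluster with B and T cell genes (0 KO, 5 WT) and 6 in T cell-like, monocyte-like or dendritic clusters (3 KO, 3 WT). T cell receptor complex transcripts (Cd3d, Cd3e, Cd3g or Trac) were present in 0 of 9 KO and 10 of 16 WT antibody-secreting cells, with 5 or more UMIs in 6 of the WT cells and at most 105. A WT cell in the monocyte-like cluster held 174 UMIs of Lyz2, and a KO cell held 31. Doublet scores were among the highest 6% of their library in 9 of 9 KO and 0 of 16 WT cells. How far these counts come from a second cell under the same barcode was not tested. No antibody-secreting cell had a barcode shared between the libraries.

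In B cell-like cells as a whole, 8 of the 10 members were past 1.5-fold higher in KO with an interval leaving out 1, and none was past 1.5-fold lower. Over all 10809 genes with at least 20 UMIs in this class, 3.18% were called higher and 7.29% lower. The KO class held 6 antibody-secreting cells among 398 and the WT class 8 among 1829. With these cells left out, 4 members were called higher (Ighd, Ighg1, Ighg2c, Ighg3) and 2 lower (Igha, Xbp1), against 3.52% and 6.43% of all 10741 genes tested. The median log2 ratio of the members was 1.16 with and 0.28 without antibody-secreting cells, beside -0.11 and -0.06 over all genes tested.

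Igha shows the dependence most plainly. With all cells it stood at 6360 CPM in KO, against 1499 CPM in WT B cell-like cells, a log2 ratio of 2.08 (2.04 to 2.13). Without the antibody-secreting cells it stood at 13.3 CPM in KO, against 49.4 CPM in WT, a log2 ratio of -1.89 (-2.69 to -1.19). Jchain went the same way, with a log2 ratio of 2.36 (2.30 to 2.41) over all cells and -0.17 (-1.12 to 0.67) without them. Xbp1 had a ratio of 0.74 (0.49 to 0.97) over all cells and -1.21 (-1.80 to -0.66) without them.

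**Figure D2:**
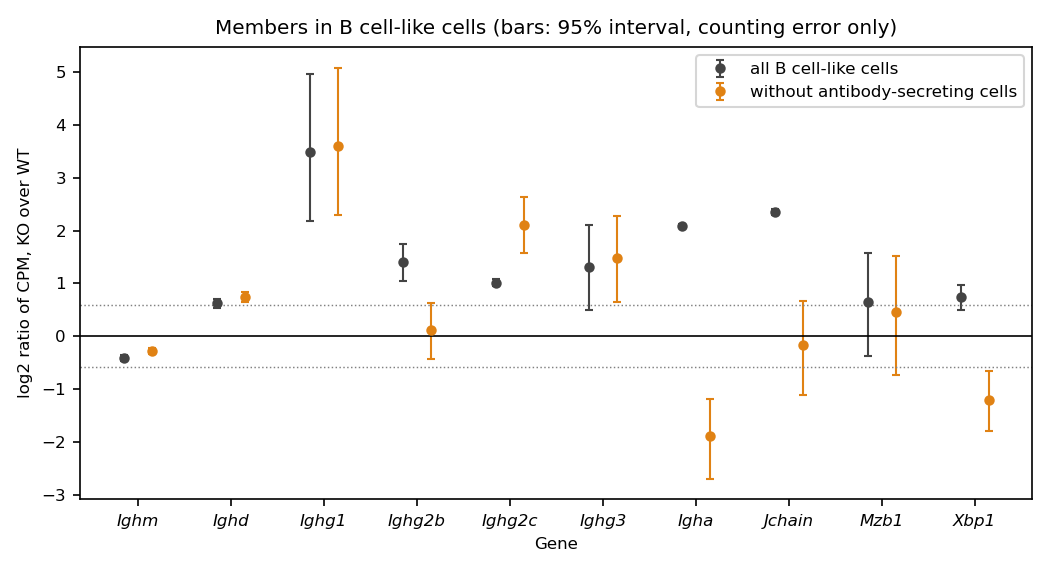
The log2 ratio of CPM, KO over WT, of each member in B cell-like cells, over all cells (grey) and without the 14 antibody-secreting cells of this class (orange), with 95% counting intervals. The dotted lines mark 1.5-fold. Igha, Jchain and Xbp1 lie above 0 in grey and below it in orange, and the values of Ighm and Ighd stay close together.

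The Igha left in B cell-like cells was set beside that of cells that should lack it. Without antibody-secreting cells, 4.08% of KO and 11.3% of WT B cell-like cells had an Igha UMI, at medians of 3148.5 and 2440 UMIs per cell. Over 9 T, NK and myeloid classes the share ran from 3.15% to 8.76% in KO and from 7.08% to 14.1% in WT. In the T cell-like class it was 5.89% in KO and 10.6% in WT, at medians of 4897.5 and 5060 UMIs. By share of cells, B cell-like cells were thus inside this background range in both libraries. By level, 13.3 CPM in KO lay inside the KO range of 3.43 to 16.2 CPM over the 9 classes. In WT, 49.4 CPM (43.6 to 55.6) lay above the range of 7.82 to 28.5 CPM over the same classes, but not above every other class. WT naive-like T cells had 51.9 CPM of Igha (32.9 to 77.9), with 78.3% of the UMIs in 5 cells. Unnamed cluster 10, with few UMIs per cell, had 56.1 CPM in WT (40.1 to 76.4). Unnamed cluster 8 had 38.1 CPM in WT (25.7 to 54.4), and the remaining WT classes outside B cell-like cells had less. The WT level was thus not set apart from all cells that should lack Igha. A Jchain UMI was present in 1.79% of the KO and 2.47% of the WT B cell-like cells, within the range of 0% to 2.66% in KO and 1.70% to 5% in WT over the same 9 classes. The Jchain level was above those 9 classes in both libraries, at 10.9 CPM in KO (5.98 to 18.4), against at most 2.55 CPM, and at 12.3 CPM in WT (9.56 to 15.7), against at most 4.70 CPM. In KO, 85.7% of these 14 Jchain UMIs came from 5 cells, and in WT 40.3% of 67. It was not above every class outside the 9. Unnamed clusters 8 and 10, with few UMIs per cell, had 17.8 CPM (9.72 to 29.8) and 18.2 CPM (9.70 to 31.2) in WT. In KO they had 4.78 CPM on 3 UMIs and 15.8 CPM on 1 UMI. WT neutrophil-like and naive-like T cells were lower, at 9.46 and 6.77 CPM.

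Ighm, the IgM heavy chain, was the main heavy-chain gene of the remaining B cell-like cells, with 69.9% of KO and 82.0% of WT heavy-chain UMIs. It was found in 94.4% of KO cells (91.6 to 96.4), with a median of 7 UMIs, and in 90.2% of WT cells, with a median of 5 UMIs. Its level was 2659 CPM in KO (2570 to 2750) and 3215 CPM in WT (3168 to 3264), a log2 ratio of -0.27 (-0.33 to -0.22), short of 1.5-fold. Within cluster 3 the levels were 2702 CPM in KO and 2869 CPM in WT, a ratio of -0.09 (-0.15 to -0.03). Within cluster 5 they were 2266 CPM in KO and 3593 CPM in WT, a ratio of -0.67 (-0.84 to -0.50), in which 59.8% of the KO UMIs came from 5 of 58 cells.

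Ighd was higher in KO B cell-like cells as a class. Inside the clusters of this class the ratio of its level was smaller. Its share of the summed Ighm and Ighd UMIs was still higher in KO in cluster 3. In cluster 5, with 24 KO Ighd UMIs, the intervals of that share overlapped. Over the class Ighd stood at 1018 CPM in KO (964 to 1075) and 608 CPM in WT (588 to 629), a log2 ratio of 0.74 (0.65 to 0.84). Of the summed Ighm and Ighd UMIs, Ighd made up 27.7% in KO (26.4 to 29.0) and 15.9% in WT (15.4 to 16.4). In cluster 3 the Ighd share was 29.1% in KO (27.8 to 30.5) and 25.9% in WT (25.05 to 26.7), and the log2 ratio of Ighd CPM was 0.15 (0.05 to 0.25). In cluster 5 the share was 7.62% in KO (4.94 to 11.1) and 4.77% in WT (4.36 to 5.21), and the ratio was 0.05 (-0.60 to 0.64). Cells with UMIs of both genes were 78.6% of KO and 55.5% of WT B cell-like cells, and cells with Ighm only were 15.8% of KO and 34.7% of WT.

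When the cells of the clusters with B cell markers were clustered again without immunoglobulin genes, the sub-clusters differed in size between the libraries. Follicular B-like cells, marked by Fcer2a, Cr2 and Fcrl1 among others, were 188 of 406 KO cells (46.3%, 41.4 to 51.3) and 580 of 2029 WT cells (28.6%, 26.6 to 30.6). B-1-like cells, marked by Cd9, Zbtb32, Bhlhe41 and Ahnak, were 31 KO cells (7.64%, 5.25 to 10.7) and 374 WT cells (18.4%, 16.8 to 20.2). The other genes of the B-1 list, Cd5, Spn and Ctla4, were not found as markers of that sub-cluster. Ccr7 and Klf2 of the follicular list were not found for the follicular B-like one. B-1 cells are innate-like B cells that make natural IgM and carry little IgD. The Ighd share of Ighm and Ighd UMIs was 29.4% in KO (27.6 to 31.2) and 27.1% in WT (26.1 to 28.1) follicular B-like cells. In B-1-like cells it was 12.8% in KO (9.95 to 16.2) and 3.96% in WT (3.57 to 4.38), with 55.4% of the KO Ighm UMIs in 5 of 31 cells.

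**Figure D3:**
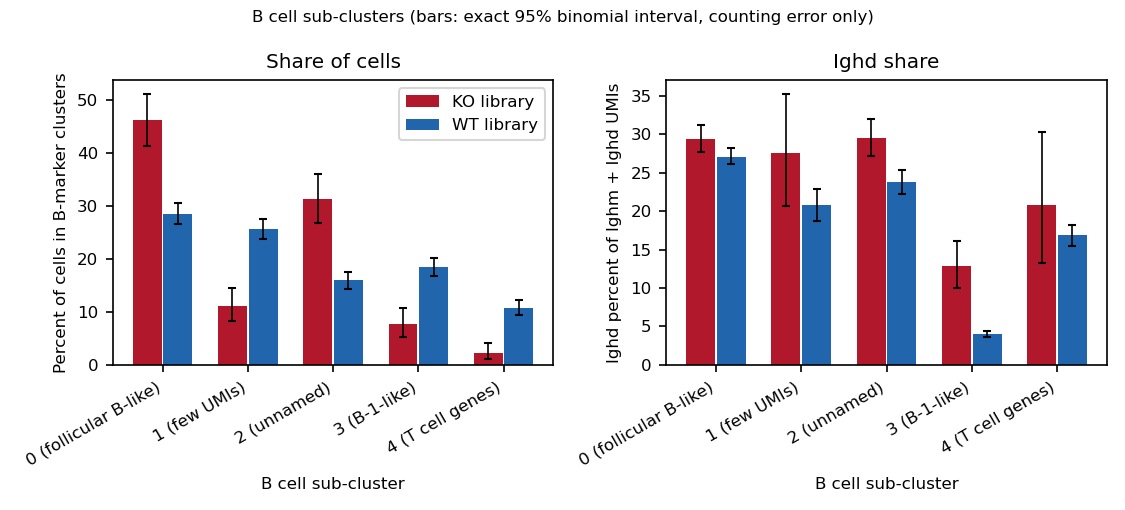
Left, percent of the cells of the clusters with B cell markers that fell in each sub-cluster, for the KO (red) and WT (blue) libraries. Right, Ighd as percent of Ighm plus Ighd UMIs in the same sub-clusters, both with exact 95% binomial intervals for counting error. The B-1-like sub-cluster has the lowest Ighd share in both libraries. The follicular B-like sub-cluster is the largest in both, with 46.3% of KO and 28.6% of WT cells.

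Ighm stood at 3018 CPM in KO, against 3176 CPM in WT follicular B-like cells, a log2 ratio of -0.07 (-0.15 to 0.00), and at 2468 CPM in KO, against 3878 CPM in WT B-1-like cells, a ratio of -0.65 (-0.80 to -0.51). A sub-cluster of 6 KO and 12 WT cells formed on Tnfrsf17, Ccr10, Fkbp11, Eaf2 and Derl3 and carried 7 plasma cell markers. All 18 of its cells were antibody-secreting by the definition above, which had used none of those genes. Cells past 1% of heavy-chain UMIs without the Jchain minimum numbered 4 in KO and 21 in WT. Ighm led in all 25 of them, all in clusters with B cell markers. The richest was a WT cell of cluster 5 with 443 Ighm UMIs of 16989, 0 of Jchain, 21 of Xbp1 and 42 of Cd79a.

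Class-switched cells were rare among B cell-like cells. A cell was counted as switched with at least 3 UMIs of Ighg1, Ighg2b, Ighg2c, Ighg3, Ighe and Igha together and more of these than of Ighm and Ighd. This gave 16 of 398 KO cells (4.02%, 2.31 to 6.45) and 27 of 1829 WT cells (1.48%, 0.975 to 2.14). Antibody-secreting cells made up 6 of the KO and 7 of the WT switched cells, which leaves 10 of 392 KO cells (2.55%) and 20 of 1821 WT cells (1.10%). In T, NK and myeloid cells, where the same rule gives the background, 5 of 4538 KO cells (0.110%) and 11 of 5370 WT cells (0.205%) were counted, among them 3 KO and 3 WT antibody-secreting cells. In cluster 5 the share was 12 of 64 KO cells (18.8%, 10.1 to 30.5) and 20 of 883 WT cells (2.27%, 1.39 to 3.48). Without antibody-secreting cells it was 6 of 58 KO cells (10.3%, 3.89 to 21.2) and 13 of 875 WT cells (1.49%, 0.793 to 2.53).

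With the unnamed cluster of B and T cell genes included, 11 KO and 21 WT switched cells were not antibody-secreting. By leading gene the KO cells were 5 of Ighg2b, 3 of Ighg2c and 1 each of Ighg1, Ighg3 and Igha. The WT cells were 14 of Ighg2b, 6 of Igha and 1 of Ighg2c. They held few switched UMIs, from 3 to 50 in KO (median 6) and from 3 to 36 in WT (median 9), and 8 KO and 14 WT cells had none of Ighm or Ighd. A UMI of Cd79a was present in 9 of the KO and 18 of the WT cells, and a UMI of Jchain in 2 KO and 7 WT cells. The KO cell with 50 switched UMIs had 48 of Ighg2c, 0 of Ighm and Ighd and 175 of Igkc. In 1 of the KO cells counted under Ighg2b, 3 IgG genes had 1 UMI each, so its leading gene is not settled. Ighe had 1 KO and 3 WT UMIs in all kept cells and led in no cell.

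The IgG values of B cell-like cells rested on few cells. Ighg1 had 20 UMIs in 2 KO cells, 19 of them in 1 cell, and 7 UMIs in 4 WT cells. Ighg2c had 62 UMIs in KO and 61 in WT, or 48.5 and 11.2 CPM, a log2 ratio of 2.11 (1.58 to 2.64), and 48 of the 62 KO UMIs came from 1 cell. Ighg3 had 23 UMIs in KO and 35 in WT, or 17.98 and 6.45 CPM, a ratio of 1.48 (0.65 to 2.28), with 87.0% of the KO UMIs in 5 cells. Ighg2b had 39 UMIs in KO and 153 in WT, or 30.5 and 28.2 CPM, a ratio of 0.11 (-0.43 to 0.63), with 92.3% of the KO UMIs in 5 cells.

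pDC-like cells carried Ighm without the rest of the B cell set. An Ighm UMI was found in 144 of 144 KO cells and in 99.5% of 215 WT cells, with medians of 8 and 6 UMIs and quartiles of 5 and 11 in KO and 4 and 9 in WT. The level was 832 CPM in KO (787 to 880) and 884 CPM in WT (841 to 929), a log2 ratio of -0.09 (-0.20 to 0.02). Siglech, the defining pDC gene, had 2834 CPM in KO and 2620 CPM in WT. With each cell thinned to 1000 UMIs, 54.2% of KO (45.7 to 62.5) and 57.7% of WT pDC-like cells (50.8 to 64.4) still had an Ighm UMI, against 12.2% of KO and 14.6% of WT T cell-like cells.

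The accompanying B cell transcripts were scarce in pDC-like cells. For every 100 Ighm UMIs they had 31.7 of Igkc in KO (28.2 to 35.5) and 61.3 in WT (56.5 to 66.5), against 364 in KO and 253 in WT B cell-like cells. Cd79a, which encodes a signalling chain of the B cell receptor, had 0.799 per 100 Ighm UMIs in KO pDC-like cells (0.382 to 1.48) and 6.08 in WT ones (4.89 to 7.48), against 122 in KO and 78.2 in WT B cell-like cells. Ighd had 2.08 in KO and 3.14 in WT, against 38.3 and 18.9. In pDC-like cells with no Cd79a UMI, which were 138 of 144 in KO and 194 of 215 in WT, Ighm stood at 831 CPM in KO, against 857 CPM in WT.

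Of the 4 members with at least 20 UMIs in pDC-like cells, 1 was called lower in KO and none higher, with 3.18% and 3.49% of 9190 genes called lower and higher in that class. The called member was Igha, with 5 KO and 29 WT UMIs. It was present in 3.47% of KO and 13.0% of WT pDC-like cells, inside the background range given above. No pDC-like cell was class-switched in either library.

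A neighbouring cluster, led by Apod, Cd209e and Cd209d and left unnamed for its low Siglech (183 CPM in KO, 280 CPM in WT), also carried Ighm. Its level was 363 CPM in 163 KO cells (337 to 390) and 604 CPM in 129 WT cells (563 to 647), and the share of cells with an Ighm UMI was 89.0% in KO and 92.2% in WT. In its cells without a Cd79a UMI the levels were 356 CPM in KO and 383 CPM in WT. Per 100 Ighm UMIs it had 11.5 of Igkc in KO and 66.6 in WT.

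**Figure D4:**
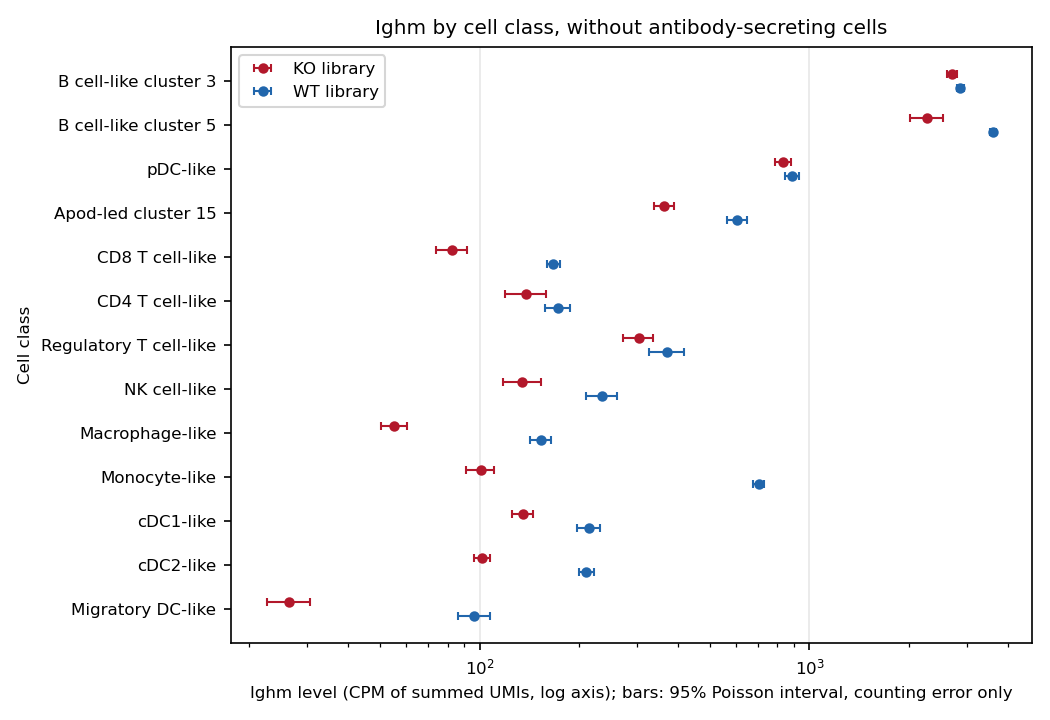
Ighm level in CPM (log axis) by cell class, without antibody-secreting cells, for the KO (red, upper point) and WT (blue, lower point) libraries, with 95% Poisson intervals. The B cell-like clusters lie above 2000 CPM, pDC-like cells at 832 CPM in KO, against 884 CPM in WT, and the WT point of monocyte-like cells, at 701 CPM, is far from its KO point at 101 CPM.

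In T, NK and myeloid cells Ighm was lower and uneven. In KO the 9 classes ran from 26.5 CPM in migratory DC-like cells to 303 CPM in the regulatory T cell-like class. In WT they ran from 96.5 CPM in migratory DC-like to 701 CPM in monocyte-like cells. Regulatory T cell-like cells had 303 CPM in KO (273 to 337) and 370 CPM in WT (327 to 416), above CD4 T cell-like cells, with 138 CPM in KO (119 to 159) and 172 CPM in WT (158 to 188). Ighm was past 1.5-fold lower in KO in 7 of the 9 classes, the exceptions being the CD4 and the regulatory T class. In CD8 T cell-like cells the levels were 82.3 CPM in KO and 167 CPM in WT, a log2 ratio of -1.02 (-1.20 to -0.86).

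The Ighm UMIs of these classes did not come with B cell genes in the proportions of B cell-like cells. Per 100 Ighm UMIs there were 25.8 of Igkc in KO and 81.4 in WT NK cell-like cells, 27.2 in KO and 63.1 in WT cDC1-like cells, and 44.1 in KO and 86.5 in WT cells of the regulatory T class. These ratios are below the 364 of KO and 253 of WT B cell-like cells. In each of these classes the ratio was lower in KO. Migratory DC-like and macrophage-like cells had 99.4 and 69.1 of Igkc in KO and 173 and 170 in WT, near the 189 of WT B cell-like cluster 5. Outside the 9 classes, naive-like T cells had 416 in WT (322 to 545), above WT B cell-like cells, and 23.1 in KO on 6 UMIs. In WT, 86.8% of those Igkc UMIs came from 5 cells. Monocyte-like cells had 70.2 of Igkc in KO and 161 in WT, and 13.2 of Cd79a in KO and 56.3 in WT. In monocyte-like cells without a Cd79a UMI, Ighm stood at 89.3 CPM in KO, against 122 CPM in WT, in place of 101 CPM in KO and 701 CPM in WT over the whole class. Ighd was present in 1.88% of KO and 16.2% of WT monocyte-like cells.

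In CD8 T cell-like cells 7 members had at least 20 UMIs. Over all cells of the class 4 were called higher and 3 lower in KO, with 12.6% and 4.93% of 12395 genes called higher and lower. Of these cells, 3 in KO and 1 in WT were antibody-secreting. Without them 1 member was called higher (Xbp1) and 6 lower (Ighm, Ighd, Ighg2b, Ighg2c, Igha, Jchain), with 12% and 4.82% of all genes tested called higher and lower.

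The NK cell-like, macrophage-like, monocyte-like, cDC and migratory DC classes had members called lower in KO and none called higher. In neutrophil-like cells, 24 in KO and 142 in WT, 2 members had enough UMIs and neither was called. In macrophage-like cells 4 of 6 members with enough UMIs were lower (Ighm, Ighd, Ighg2c, Igha), beside 5.73% of all genes. In monocyte-like cells 5 of 6 were lower, beside 11.1% of all genes, and 4 of 5 without the WT antibody-secreting cell of that cluster. Ighm, Ighd and Igha were the 3 lower members of 4 in NK cell-like cells, beside 3.64% of all genes, and of 4 in cDC1-like cells, beside 2.61%. In cDC2-like cells 5 of 8 were lower (Ighm, Ighd, Ighg2b, Ighg2c, Ighg3), beside 7% of all genes, and Igha stood at 7.88 CPM in KO, against 7.82 CPM in WT. In migratory DC-like cells 4 of 5 were lower, beside 6.75% of all genes, and 3 of 5 without the WT antibody-secreting cell of that cluster. Igha ran from 3.43 to 16.2 CPM over the 9 T, NK and myeloid classes in KO and from 7.82 to 28.5 CPM in WT. The KO library held 9 antibody-secreting and 398 B cell-like cells, and the WT library 16 and 1829, beside this background. The part of these cells in it was not tested.

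Xbp1 had a wide distribution of its own. Outside antibody-secreting cells the highest level was in pDC-like cells, 468 CPM in KO (434 to 504) and 340 CPM in WT (314 to 369). Monocyte-like cells followed with 342 CPM in KO (325 to 361) and 244 CPM in WT (228 to 262). Macrophage-like cells had 192 CPM in KO and 176 CPM in WT, cDC2-like cells 159 and 139, and cDC1-like cells 128 and 116. In the regulatory T class Xbp1 had 90.0 CPM in KO and 82.0 CPM in WT. CD4 T, NK and CD8 T cell-like cells, with 57.7, 56.4 and 55.3 CPM in KO and 49.6, 62.5 and 35.2 CPM in WT, had overlapping intervals in KO. B cell-like cells without antibody-secreting cells were below all of these in KO, with 23.5 CPM (15.8 to 33.5), and lay between CD4 T and NK cell-like cells in WT, with 54.1 CPM (48.1 to 60.7).

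**Figure D5:**
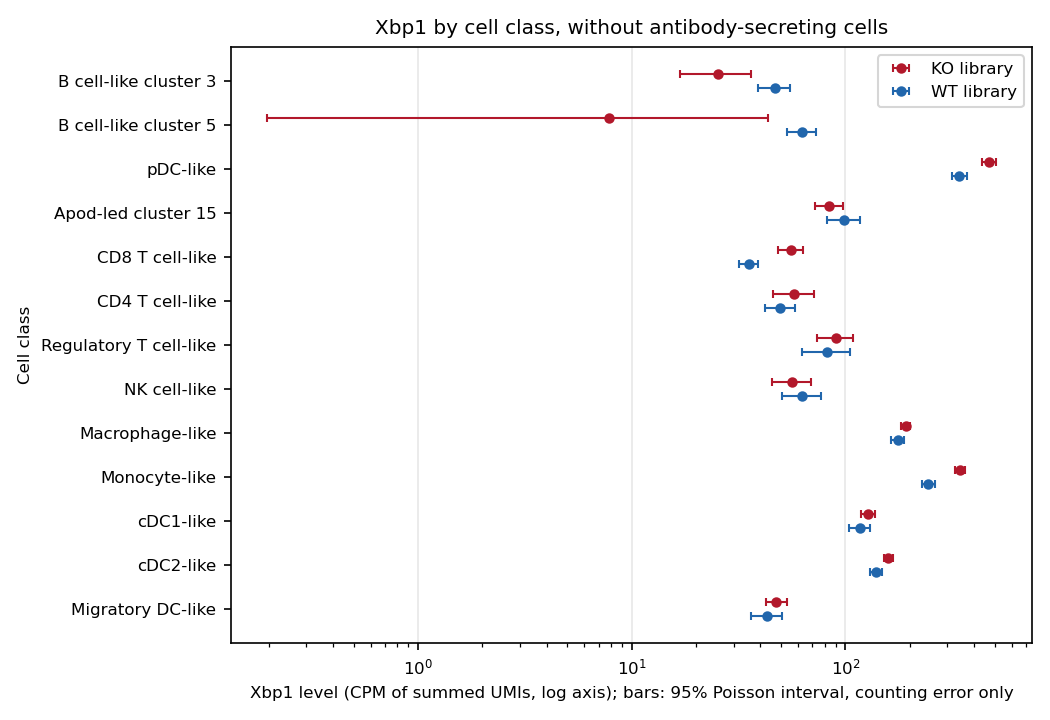
Xbp1 level in CPM (log axis) by cell class, without antibody-secreting cells, for the KO (red, upper point) and WT (blue, lower point) libraries, with 95% Poisson intervals. pDC-like cells are highest in both libraries, and B cell-like cluster 5 in KO rests on 1 UMI.

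The myeloid and dendritic Xbp1 ratios were small. In pDC-like cells the log2 ratio of KO over WT was 0.46 (0.30 to 0.62) and in monocyte-like cells 0.49 (0.36 to 0.61), both short of 1.5-fold. In macrophage-like, cDC1-like and cDC2-like cells the ratios were 0.13 (0.00 to 0.25), 0.13 (-0.06 to 0.32) and 0.19 (0.08 to 0.30). CD8 T cell-like cells were past 1.5-fold higher in KO, at 0.65 (0.41 to 0.89), but with cells thinned to 1000 UMIs an Xbp1 UMI was found in 3.96% of KO and 3.74% of WT cells. In B cell-like cluster 3, Xbp1 had 29 UMIs in KO and 132 in WT, 25.2 and 46.6 CPM, a ratio of -0.89 (-1.52 to -0.30). Thinned, 0.906% of KO (0.187 to 2.63) and 5.12% of WT (3.77 to 6.77) cluster 3 cells had an Xbp1 UMI.

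The other genes of antibody production were read in B cell-like cells, list by list, with the same call and background. Of all genes tested, 3.18% were called higher and 7.29% lower over all cells. Without antibody-secreting cells these shares were 3.52% and 6.43%. Of 5 light chain constant genes with enough UMIs, 2 were called higher in KO over all cells and none without antibody-secreting cells. Igkc, the kappa constant gene, stood at 41194 CPM in KO, against 15005 CPM in WT, over all cells and at 9673 CPM in KO, against 8138 CPM in WT, without them. Iglc1, a lambda constant gene, stood at 1736 CPM in KO, against 951 CPM in WT, and at 554 CPM in KO, against 684 CPM in WT, without them. The lowest ratios were those of Iglc2 and Iglc3, 0.03 (-0.05 to 0.10) and 0.21 (0.11 to 0.31) on the log2 scale.

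Of 12 B cell receptor and co-receptor genes, none was called higher and 3 were called lower in KO, with and without antibody-secreting cells. Over all genes tested 7.29% and 6.43% were called lower. The 3 genes were Cd22, an inhibitory co-receptor, Blk, a Src family kinase, and Plcg2, the phospholipase of the signalling pathway. Without antibody-secreting cells their log2 ratios were -0.59 (-0.80 to -0.39), -0.68 (-1.01 to -0.37) and -0.68 (-1.09 to -0.30). At the other end, the complement receptor gene Cr2 and the tetraspanin gene Cd81 had ratios of 0.36 (0.03 to 0.69) and 0.31 (0.06 to 0.55) over all cells.

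No gene was called in either direction among 13 genes of class switching and 8 of germinal centre or mature B cells, with or without antibody-secreting cells. Over all cells the extremes of the switching list were Lig4, a DNA ligase gene, at 0.88 (-0.54 to 2.17), and Ung, the uracil glycosylase gene, at 0.54 (-0.24 to 1.27), and Prkdc at -0.52 (-1.16 to 0.06) and Xrcc6 at -0.56 (-1.40 to 0.19), both genes of DNA end joining. The extremes of the mature B cell list were the transcription factor genes Bcl6 at 0.35 (-0.21 to 0.89), Pax5 at 0.21 (0.02 to 0.39), Foxp1 at -0.04 (-0.13 to 0.05) and Bach1 at -0.08 (-0.71 to 0.50).

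Of 11 regulators of antibody-secreting cells, 5 were called higher in KO and none lower over all cells, beside 3.18% and 7.29% of all genes. Tnfrsf17 had 62 KO and 4 WT UMIs. Sdc1, which encodes the plasma cell surface protein syndecan-1, had 28 KO and 33 WT UMIs, a log2 ratio of 1.73 (0.95 to 2.50). Irf4 and Il6ra had the lowest ratios, -0.27 (-0.61 to 0.06) and -0.38 (-1.08 to 0.26). Without antibody-secreting cells 2 of 10 were called higher, Sdc1 and Pim2, and 1 lower, Prdm1, at 10.9 CPM in KO, against 26.3 CPM in WT. Of all genes tested, 3.52% were then called higher and 6.43% lower.

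Of 29 genes of folding and secretion in the endoplasmic reticulum, 2 were called higher, Derl3 and Spcs1, and 2 lower, Pdia3 and Atf6, over all cells. These counts stand beside 3.18% of all genes called higher and 7.29% called lower. Derl3, a gene of protein export for degradation, stood at 22.5 CPM in KO, against 8.66 CPM in WT, and Spcs1, of the signal peptidase, at 136 CPM in KO, against 79.0 CPM in WT. Atf6, a sensor of unfolded protein, stood at 59.1 CPM in KO, against 94.0 CPM in WT. Ern1, the kinase gene whose product splices Xbp1 RNA, was not called. It had 3 KO and 27 WT UMIs, or 2.11 and 4.87 CPM, a log2 ratio of -1.21 (-3.57 to 0.49). Without antibody-secreting cells none was higher and 9 were lower, beside 3.52% and 6.43% of all genes. The median log2 ratio was -0.53, beside -0.06 over all genes tested. Pdia3, which encodes a disulfide isomerase, then stood at 93.1 CPM in KO, against 183 CPM in WT, a ratio of -0.98 (-1.26 to -0.70).

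Some genes outside the immunoglobulin loci had levels much like those of the members across 30 points, the classes of both libraries. These correlations of log2(CPM + 1) are descriptions, since the points share libraries, depth and background. Ighm was most like Tnfrsf13c, which encodes the BAFF receptor (r = 0.85), then Gm38365 (r = 0.83). Jchain was most like Bend5 (r = 0.80), Pou2af1, which encodes a B cell transcriptional co-activator (r = 0.77), and 2010309G21Rik (r = 0.76). Mzb1 was most like 1110059E24Rik (r = 0.88), Gm30211 (r = 0.87) and A530030E21Rik (r = 0.86). Its values rest on only 25 KO and 65 WT UMIs in kept cells. Xbp1 was most like Nucb2 (r = 0.89), Grn (r = 0.87) and Zcchc24 (r = 0.86).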

How the data were processed

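The authors deposited whole-number UMI counts per gene and barcode, 1 matrix per library, without normalization. Cell Ranger 3.1.0, bcl2fastq 2.20, Seurat 4.0.1 and the build GRCm38 are listed in the submitters' processing notes, while Cell Ranger 4.0.0 stands in the matrix header. Gene coordinates and transcripts are those of GENCODE M21. Kept cells had at least 200 genes and no more than 15% of UMIs from mitochondrial genes. Scrublet marked 1 KO and 0 WT cells, so it did not work as a doublet filter. Cells were clustered with scanpy 1.11.5 on 30 principal components with 15 neighbours and Leiden resolution 1.0, leaving out immunoglobulin genes and members. Clusters were named from marker lists, with limits set after the clusters were seen (pDCs needed 1000 CPM of Siglech). UMIs were summed per class and library and scaled to CPM with exact Poisson intervals. Shares carry exact (Clopper-Pearson) binomial intervals, and ratios exact conditional binomial ones. A gene was called past 1.5-fold with an interval leaving out 1 and at least 20 UMIs over both libraries, a rule tested on simulated data. The members, lists and marker genes were chosen with earlier results of these data known. The named genes were all 10 members, the 2 highest and 2 lowest of each list, and the 3 genes most like Ighm, Jchain, Mzb1 and Xbp1. Some genes under this rule are not reported here. Other genes and single cells were named after their values were seen.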

Additional observations from a re-analysis of the deposited data

Results flagged for a closer look

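For Ighd, Ighg2c, Xbp1 and Ighg3 the KO over WT ratio, without antibody-secreting cells, pointed one way in one cell class and the other way in another. Each rests on 1 library per genotype, and the difference between the classes was not tested. Ighd had a log2 ratio of 0.74 in B cell-like cells and -3.55 in monocyte-like cells, where 1.88% of KO and 16.2% of WT cells held an Ighd UMI. The B cell gene Cd79a moved with it in monocyte-like cells, at 13.3 CPM in KO, against 395 CPM in WT, a log2 ratio of -4.90, with a UMI in 3.06% of KO and 25.8% of WT cells, and the part of B cell RNA in the Ighd value was not tested. Ighg2c had a log2 ratio of 2.11 in B cell-like cells, with 48 of its 62 KO UMIs in 1 cell, and -2.94 (-8.31 to -0.30) in CD8 T cell-like cells. Xbp1 had a log2 ratio of 0.65 in CD8 T cell-like cells and -1.21 in B cell-like cells. Ighg3 was called higher in KO in B cell-like cells, where its UMIs rested on few cells, and lower in KO in cDC2-like cells.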

How the results depend on the processing

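Over 15 settings, 238 values were recomputed, and those given here changed direction or moved outside their counting interval. The log2 ratios of KO over WT in all B cell-like cells were -0.41 for Ighm, 0.62 for Ighd, 2.08 for Igha, 2.36 for Jchain, 0.74 for Xbp1, 1.40 for Ighg2b, 1.01 for Ighg2c and 1.32 for Ighg3, and -0.42 for Xbp1 in migratory DC-like cells. Without antibody-secreting cells, a setting chosen after seeing the data, they became -0.27 (Ighm), 0.74 (Ighd), -1.89 (Igha), -0.17 (Jchain) and -1.21 (Xbp1), and 0.14 for Xbp1 in migratory DC-like cells. With immunoglobulin and member genes kept in the clustering they became -0.29, 0.74, -1.89, -0.76 and -1.21 in the same order, and 0.11 in migratory DC-like cells. With the 6% of cells of highest doublet score removed, the share of antibody-secreting cells in KO was 0%. The ratios then became -0.19 (Ighm), 0.89 (Ighd), -7.34 (Igha), -7.04 (Jchain), -2.44 (Xbp1), -5.44 (Ighg2b) and -4.18 (Ighg2c). As a mean of per-cell CPM they became -0.12 (Ighm), 0.48 (Ighd), 1.57 (Igha), 2.18 (Jchain) and -0.58 (Xbp1). Without the 5 cells of each library with most UMIs of the gene they became -1.91 (Igha), 3.45 (Jchain), -0.33 (Xbp1), -0.80 (Ighg2b) and -0.69 (Ighg3), and 0.23 for Xbp1 in migratory DC-like cells. Scaled without immunoglobulin UMIs, Igha had 2.13. Xbp1 in migratory DC-like cells had 0.077 with a mitochondrial limit of 10% and 0.15 in cells of at least 1000 UMIs. For ratios, apart from settings that remove cells by construction, the cause was not tested. Class-switched cells were 4.02% of KO and 1.48% of WT B cell-like cells. With at least 1 switched UMI the WT share was 2.19%, with at least 10 it was 0.820%, and with cells thinned to 1000 UMIs the shares were 2.18% in KO and 0.914% in WT. No paired analysis was possible because each genotype had 1 library. With 9 and 16 antibody-secreting cells in KO and WT, counting error alone leaves the shares of isotypes wide, and differences between mice could not be measured.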
